A study of Caenorhabditis elegans with 3 samples.

Results

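The small ribosomal subunit protein genes of Caenorhabditis elegans were taken as all protein-coding genes of the WBcel235 annotation whose symbol starts with rps-. There were 31 of them among 19985 protein-coding genes. Binding of GFP-tagged R02D3.7, the product of the gene now named rcat-1, was mapped by chromatin immunoprecipitation and sequencing (ChIP-seq) in whole L4 larvae. All samples came from strain OP218, which carries unc-119(ed3) on chromosome III and the insertion wgIs218. They formed 1 group of 3 biological replicates, and there was no second genotype, stage or treatment. Replicates 1 and 2 carried a fragment size range in their labels, and replicate 3 carried sonication with a microtip. The labels do not say which promoter drives the insertion, and whole larvae mix all cell types, so a peak cannot be placed in a cell type.

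The small subunit of the ribosome binds messenger RNA and reads its codons, while the large subunit joins the amino acids. Each small subunit holds 1 copy of each rps protein together with the small subunit ribosomal RNA. Its head and its body with the platform are the main regions of the particle, and the place of each protein in them is known from yeast and human ribosomes. Ribosomal protein genes are among the most highly expressed genes of growing animals. A gene was counted as bound when the summit of a peak, its point of highest signal, lay between 1000 bp upstream and 200 bp downstream of one of its annotated transcript starts.

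The DNA under 6 of these summits is given as 101 bases centred on the summit, from RefSeq WBcel235, 5' to 3' in the direction of the rps gene. The 4 strongest rps peaks are shown because each holds CGTAAA within 50 bp of its summit. rps-30 is shown as a bound gene with no such match, and rps-5 as a gene outside the thresholded list that has one. Capitals mark CGTAAA, its longer form CGTAAATC, or the same letters read on the other strand.
rps-12, chrIII:5679074-5679174, + strand: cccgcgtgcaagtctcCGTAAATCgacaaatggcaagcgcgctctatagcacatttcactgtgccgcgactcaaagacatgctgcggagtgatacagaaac
rps-24, chrIV:385530-385630, + strand: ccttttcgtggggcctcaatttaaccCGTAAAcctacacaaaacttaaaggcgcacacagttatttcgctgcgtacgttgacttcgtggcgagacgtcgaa
rps-0, chrIII:4754313-4754413, - strand: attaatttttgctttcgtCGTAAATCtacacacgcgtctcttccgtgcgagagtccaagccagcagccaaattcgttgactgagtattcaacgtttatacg
rps-21, chrIII:7189900-7190000, - strand: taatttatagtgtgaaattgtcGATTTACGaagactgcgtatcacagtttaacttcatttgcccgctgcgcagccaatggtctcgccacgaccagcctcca
rps-30, chrV:7776279-7776379, + strand: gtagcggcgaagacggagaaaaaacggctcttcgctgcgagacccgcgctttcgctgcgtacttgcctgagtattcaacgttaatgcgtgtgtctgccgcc
rps-5, chrIV:11111204-11111304, - strand: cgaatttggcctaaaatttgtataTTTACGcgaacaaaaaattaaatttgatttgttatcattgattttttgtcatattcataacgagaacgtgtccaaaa

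The authors' thresholded list was made from the 3 replicates and cut by the irreproducible discovery rate, a measure of reproducibility. A peak in it need not hold a summit of every replicate. This list had a summit at 10 of the 31 rps genes. This is 32.3% of them (exact 95% interval 16.7% to 51.4%, which treats genes as independent), against 2.05% of all protein-coding genes. The pooled list, called on the 3 replicates together before the reproducibility cut, had a summit at 28 rps genes (90.3%, interval 74.2% to 98.0%). This was against 21.6% of all protein-coding genes. The lists of the single replicates, also from before this cut, reached 30, 27 and 29 rps genes in replicates 1, 2 and 3. The shares of all protein-coding genes in these lists were 39.3%, 37.4% and 40.8%, so a summit in a replicate list alone separates genes weakly. All 10 genes of the thresholded list also had a summit in each of the other lists. The same held for 404 of the 409 protein-coding genes in the thresholded list, or 2.02% of all protein-coding genes, so the other lists add little to the thresholded one here. No p-value is given for these counts, since the genes were chosen with results of these peaks known.

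Signal, the strength that the authors' peak caller gave each peak, ran from 35.6 to 901 in the 390 thresholded peaks, with a median of 60.9. All 390 were the strongest peaks of the pooled list, which held 11533, and the strongest of all lay 212 bp upstream of rcat-1. Replicates 1, 2 and 3 had 27624, 28357 and 30000 peaks before the reproducibility cut. Whether any other limit was set on these lists is not known here. Signals of different lists have no common scale, so they are compared only within a list.

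Of the 13 rps genes of the head of the small subunit, 3 were bound in the thresholded list. Of the 18 genes of the body and platform, 7 were bound. The exact intervals of these shares, 5.04% to 53.8% for the head and 17.3% to 64.3% for the body and platform, overlap over most of their range, so no difference between them is read from these counts. Both are set against the same 2.05% of all protein-coding genes. The bound genes lay on 4 chromosomes, with 4 of 9 rps genes bound on chromosome III, 2 of 10 on IV, 2 of 3 on V and 2 of 8 on chromosome I. The single rps gene on chromosome II was not bound, and there is none on the X chromosome. Shares of all protein-coding genes bound on each chromosome were not counted. No difference between chromosomes is therefore read from these counts.

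The strongest rps peak was that of rps-12, a head protein whose Drosophila homologue is known for its part in cell competition. It lay at chrIII:5678835-5679416, ranked 9 of 390 with a signal of 423, and its summit was 174 bp upstream of the start. Inside this peak the signal was 180.0, 76.1 and 165 in replicates 1, 2 and 3, at ranks 10, 20 and 8 of their lists. The rps-12 summits of the 3 replicates lay 168 ± 5.51 bp upstream (mean ± SD, n = 3), the tightest of the 10 genes. rps-24, whose human homologue is one of the genes mutated in Diamond-Blackfan anaemia, had its peak at chrIV:385405-385906, with rank 22, a signal of 296 and the summit 307 bp upstream. Its signal was 127, 73.4 and 93.6 in replicates 1, 2 and 3, with summits 306 ± 7.57 bp upstream. Both genes stood among the 25 strongest peaks of every list.

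The next pair encode proteins that sit beside each other on the body of the subunit. rps-0, the homologue of human RPSA, had a peak at chrIII:4754102-4754586 with rank 34, a signal of 223 and the summit 312 bp upstream. The signal there was 83.1, 52.7 and 97.0 in replicates 1, 2 and 3, and the summits lay 323 ± 11.5 bp upstream. rps-21 had its main peak at chrIII:7189800-7190091 with rank 60, a signal of 170.3 and the summit 319 bp upstream. The replicate signals of rps-21 were 66.9, 55.1 and 58.1, with summits 331, 297 and 315 bp upstream. A second thresholded peak overlapped it, with rank 341, a signal of 38.9 and a summit 524 bp upstream of rps-21, so the 10 genes hold 11 thresholded peaks. These 4 genes, rps-12, rps-24, rps-0 and rps-21, were the only rps genes within the 390 strongest peaks of each replicate.

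The other 6 bound genes had signals from 40.7 to 78.2, all below the weakest of the first 4. rps-27, a body protein, had a peak at chrV:104590-104786 with rank 162, a signal of 78.2 and the summit 591 bp upstream, the farthest of the 10. Its signal was 46.0 at rank 123 in replicate 1 and 32.5 at rank 125 in replicate 3, but 5.47 at rank 6648 in replicate 2. The strongest replicate 2 summit in the rps-27 window lay elsewhere, 26 bp downstream of the start at rank 6097, so this site rests mainly on replicates 1 and 3. rps-30, made as a fusion with a ubiquitin-like protein in mammals, had a peak at chrV:7776114-7776543 with rank 209, a signal of 58.4 and the summit 249 bp upstream. Its replicate signals were 15.03, 21.5 and 16.8, with summits 256 ± 18.5 bp upstream.

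rps-28, a small protein of the head, had rank 247 and a signal of 50.7 at chrIV:1659061-1659490, with the summit 415 bp upstream. Its replicate signals were 21.2, 12.8 and 17.1, with summits 443 ± 16.3 bp upstream. rps-26, whose yeast homologue contacts messenger RNA near the exit of its channel, had rank 253 and a signal of 49.3 at chrI:14759302-14759731, with the summit 413 bp upstream. Its replicate signals were 14.1, 13.2 and 22.4, and its summits inside the peak lay 390 ± 53.0 bp upstream, the largest SD of the 10 genes for summits inside the peak. rps-20, a head protein, had rank 255 and a signal of 49.2 at chrI:14469095-14469524, with the summit 207 bp upstream. Its replicate signals were 25.9, 12.9 and 10.8, with summits 213 ± 14.5 bp upstream.

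rps-1, a platform protein, had the weakest of the 10, with rank 324 and a signal of 40.7 at chrIII:4475445-4475874 and the summit 258 bp upstream. Replicates 1 and 3 had signals of 18.6 and 10.3 inside this peak, while replicate 2 had no summit in it. The only replicate 2 summit in the rps-1 window was 42 bp downstream of the start, with a signal of 13.6 at rank 382. Thus the strongest thresholded peak held a summit of each replicate at 9 of the 10 genes, all but rps-1. The second peak of rps-21 also held none of replicate 2. With the 1950 strongest peaks of each replicate alone, 5 times the number of thresholded peaks, this was so at 8 genes, without rps-1 and rps-27.

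**Figure D1:**
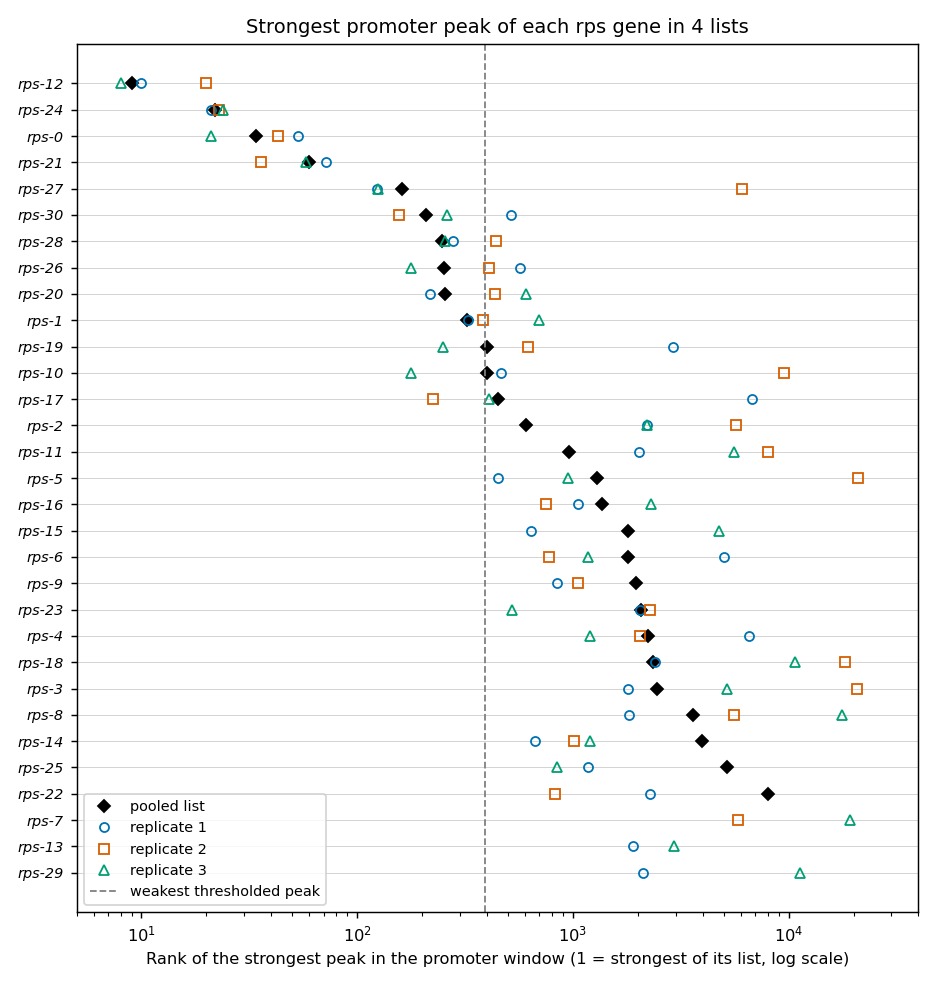
Rank of the strongest peak in the promoter window of each of the 31 rps genes (log axis, 1 is the strongest of its list), in the pooled list (black diamonds) and in replicates 1, 2 and 3 (open symbols); a gene without a symbol has no summit in that list. The 10 genes left of the dashed line, which marks pooled rank 390, are those of the thresholded list, and the first 4 lie left of the line in every list.

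All 10 summits lay upstream of the rps start, from 174 to 591 bp, with a median of 309.5 bp. Among the 399 other protein-coding genes bound in the thresholded list, the median was 230 bp upstream and 375 lay upstream. The quartiles of the bound rps genes, 251.25 and 389.5 bp upstream, fell between those of the other bound genes, 123 and 396 bp upstream.

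**Figure D2:**
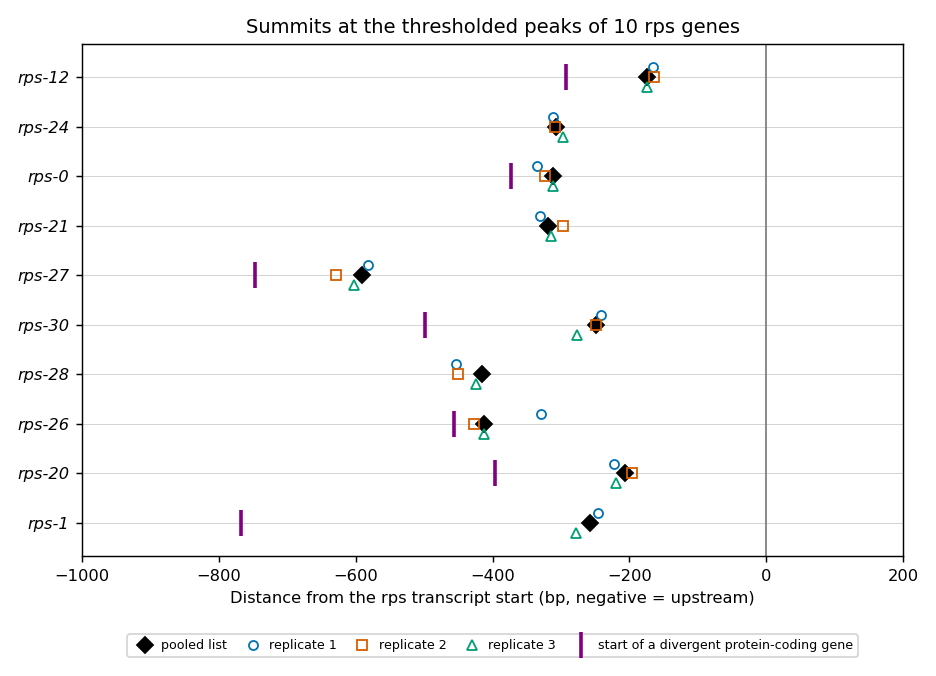
Position of the summits inside the main thresholded peak of each bound rps gene, in bp from the rps transcript start (negative is upstream), in the pooled list (diamonds) and in each replicate (open symbols), with purple bars for the start of a divergent protein-coding gene. All pooled summits lie upstream, and in 7 of the 10 genes a divergent start lies farther upstream on the other side of the summit.

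The peaks of 8 of the 10 bound genes also lay in the promoter window of another protein-coding gene, and a position cannot say which gene a peak belongs to. In 5 of these the other start was nearer to the summit. These were ska-3, a gene of the spindle and kinetochore, at 119 bp (rps-12), rbg-3 at 61 bp (rps-0), picd-1 at 157 bp (rps-27), tmem-107, a gene of the ciliary transition zone, at 44 bp (rps-26), and ekl-4, the homologue of human DMAP1, at 190 bp (rps-20). In the other 3 the rps start was nearer. The rps-30 summit lay 249 bp from its own start and 250 bp from that of rpl-39, a large subunit protein gene on the other strand, and 971 bp from C26F1.3. The rps-28 summit lay 834 bp from Y41D4B.4, and the rps-1 summit 510 bp from ifet-1, a translational repressor of the germ line. rps-24 and rps-21 shared their peaks with no other protein-coding gene, although the rps-24 window overlapped that of the pseudogene T07A9.1. Its start lay 644 bp from the summit. Shared windows were not counted for the other thresholded peaks, so sharing is not read as particular to the rps genes.

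Several of these windows also hold starts of RNA genes. They were the snoRNA genes F54E7.10 and F54E7.11 at rps-12 and F39B2.14 at rps-26, and the microRNA gene mir-354 at rps-20. The others were B0393.12 at rps-0, C26F1.13 and C26F1.14 at rps-30, and F56F3.10 and F56F3.11 at rps-1, all annotated as ncRNA. When each peak was given only to the gene with the nearest start, 3 rps genes (rps-21, rps-24 and rps-28) were left among all genes. Among protein-coding genes alone 5 were left, with rps-1 and rps-30 added. The share of all protein-coding genes was not recounted under these nearest-start rules. The lower counts are therefore not read as a trait of the rps genes.

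Divergent neighbours, with a protein-coding start on the other strand within 1000 bp upstream, were common to the rps genes whether bound or not. They were found at 7 of the 10 bound genes and 12 of the 21 others, which makes 19 of 31 (61.3%), against 3639 of 19954 other protein-coding genes (18.2%). Among the other protein-coding genes bound in the thresholded list, 213 of 399 (53.4%) had one.

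Below the threshold, 18 rps genes had a summit in the pooled list but not in the thresholded one. Their strongest peaks ranked from 398 to 8003, with signals from 35.3 to 11.7 and a median of 18.6. Of the 18 summits, 15 lay upstream. This was near the 3674 of 4288 at other protein-coding genes with a pooled summit, thresholded or not. The strongest of these 18 rps peaks was that of rps-19, whose human homologue is the gene most often mutated in Diamond-Blackfan anaemia. The rps-19 peak had a pooled signal of 35.3, just under the weakest thresholded signal of 35.6. Its strongest replicate summits had signals of 7.92, 11.4 and 17.3, and lay 471, 147 and 282 bp upstream in replicates 1, 2 and 3. Replicates 1 and 3 had 3 and 2 summits in this window, and only the strongest were compared. rps-10, a head protein, followed at rank 402 with a pooled signal of 35.0. It had signals of 15.7 and 22.4 in replicates 1 and 3, at ranks 465 and 177 and 304 and 343 bp upstream, but 4.79 at rank 9495 in replicate 2, 483 bp upstream.

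rps-17, a head protein, ranked 448 with a pooled signal of 33.0. Replicates 2 and 3 had signals of 18.2 and 12.7, at ranks 224 and 407 and 205 and 207 bp upstream, and replicate 1 had 5.91 at rank 6796, 414 bp upstream. rps-2, which lines the entry of the messenger RNA channel, ranked 608 with a pooled signal of 28.2. All 3 replicates marked the same place at rps-2, 371, 342 and 364 bp upstream, with signals of 8.65, 5.76 and 7.21 at ranks 2197, 5696 and 2212. rps-11, a body protein, ranked 957 with a pooled signal of 23.6 and the summit 45 bp downstream of the start. Its strongest replicate summits, with signals of 8.88, 5.10 and 5.39, lay 858, 282 and 892 bp upstream, away from this pooled summit. Replicates 1 and 3 and the pooled list each had 2 summits in the window.

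rps-7, rps-13 and rps-29 had no pooled summit in their windows. Across the 14 genes outside the thresholded list that had a summit in all 3 replicates, the strongest summits of the replicates spanned a median of 363 bp, and 2 spanned at most 100 bp. For the 10 genes of the thresholded list, the same span had a median of 32.0 bp, and 8 spanned at most 100 bp. rps-27 and rps-1, with 628 and 320 bp, were the exceptions, because of replicate 2. The thresholded list was itself made from these replicates and cut by a measure of reproducibility, so this contrast is a description of it.

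Shorter lists gave the same order of shares. Within the 1000, 2000 and 5000 strongest pooled peaks, 15, 20 and 26 rps genes were bound, against 3.91%, 6.44% and 12.2% of all protein-coding genes. The 1950 strongest peaks of replicates 1, 2 and 3 reached 20, 16 and 19 rps genes, against 6.26%, 5.31% and 5.55% of protein-coding genes. A total of 9 rps genes were bound in the thresholded list and in these strongest peaks of each replicate, against 1.75% of protein-coding genes, and rps-27 was the one lost. Counted at the 28 rps genes with a pooled summit, the median rank of the strongest peak was 782.5, against 4156 at the 4288 other protein-coding genes with one.

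**Figure D3:**
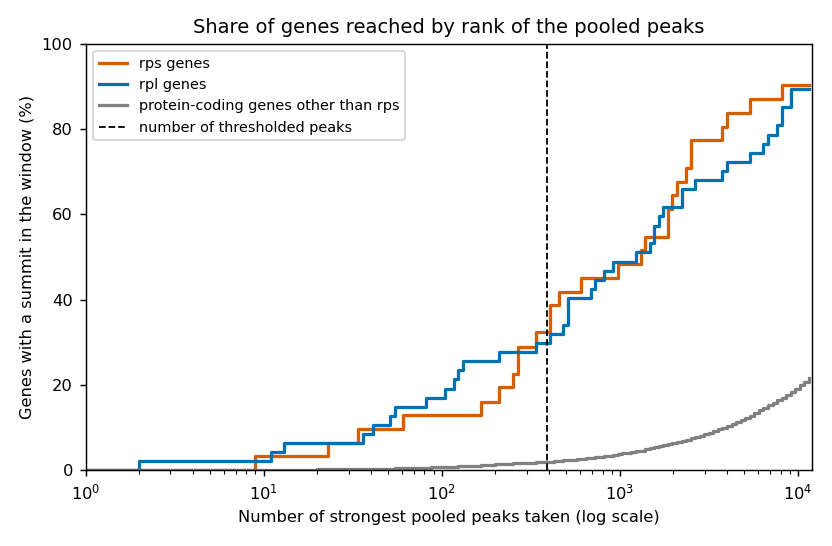
Share of genes with a summit in the promoter window (vertical axis, %) as more of the strongest pooled peaks are taken (log axis), for the 31 rps genes, the 47 rpl genes and the protein-coding genes other than rps; the dashed line marks 390 peaks. The rps curve reaches 32.3% at that line and 90.3% at the end, close to the rpl curve, while the other protein-coding genes end at 21.5%.

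Other genes of the ribosome and of its use were counted by the same rule. The large subunit protein genes (rpl-) had 14 of 47 bound in the thresholded list, or 29.8% (interval 17.3% to 44.9%), and the rps share of 32.3% lay inside that interval. Of the 3 stalk protein genes, rla-0 alone was bound, with rank 153. Neither ubl-1, which encodes a small subunit protein fused to a ubiquitin-like protein, nor rack-1, a scaffold protein on the head, was bound in the thresholded list, while both had a pooled summit. The small subunit protein genes of the mitochondrial ribosome (mrps-) had 4 of 29 bound (13.8%, interval 3.89% to 31.7%). This interval leaves out the rps share of 32.3%, but it overlaps the rps interval of 16.7% to 51.4%. The mrps genes were led by mrps-7 with rank 24.

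Of 15 genes for the assembly of the small subunit, 3 were bound, namely rbd-1, pro-1 and nol-6. Of 23 genes for the start of translation on it, 3 were bound, namely eif-2gamma, eif-2beta and eif-2Bgamma, whose products make or recycle the factor that brings the initiator tRNA. The intervals of both shares, 4.33% to 48.1% and 2.78% to 33.6%, include the rps share at this number of genes.

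**Figure D4:**
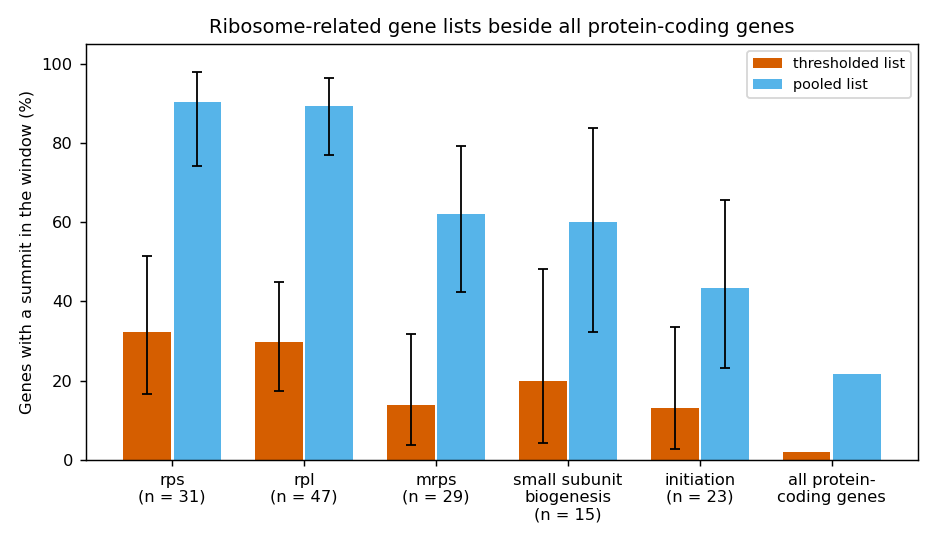
Share of genes with a summit in the promoter window (bars from 0, %) in the thresholded list (orange) and the pooled list (blue) for 5 gene lists and for all protein-coding genes; error bars are exact 95% intervals over genes. The rps and rpl bars stand at 32.3% and 29.8% in the thresholded list, against 2.05% of all protein-coding genes.

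Letters under the summits were compared next, with both strands searched. CGTAAA, a 6-base word chosen with earlier results of these peaks known, lay within 50 bp of the summit at 4 of the 10 bound rps genes. Among the 380 other thresholded summits it was found at 173 (45.5%), so 4 of 10 was near that background. Among all 11533 pooled summits it was found at 859 (7.45%), and at the rps genes with a pooled but no thresholded summit it was found at 2 of 18, rps-5 and rps-9. The longer CGTAAATC, which contains CGTAAA, was found at 3 of the 10 (rps-12, rps-0 and rps-21), against 38.4% of the other thresholded summits.

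The 4 bound genes with CGTAAA were the 4 with the strongest peaks, ranks 9 to 60 with signals of 170.3 to 423, while the 6 without it ranked 162 to 324 with signals of 40.7 to 78.2. The other thresholded summits ran the same way, with a median rank of 135.0 for those with CGTAAA and 259.0 for those without. The centre of the word lay upstream of the summit in the direction of the gene at all 4, at a distance of 31.5 bp at rps-12, 21.5 bp at rps-24, 29.5 bp at rps-0 and 23.5 bp at rps-21. At rps-21 it was on the other strand. At the other thresholded summits with the word, the median distance in either direction was 20.5 bp, and the side was not counted. Outside the thresholded list, the word lay 23.5 bp upstream of the summit at rps-5 and 25.5 bp downstream at rps-9. Within 100 bp rps-27 had the word as well, 54.5 bp upstream of its summit and on the other strand.

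Taken over whole promoter windows of 1201 bp, CGTAAA was present at 15 of 31 rps genes (48.4%), against 39.6% of all protein-coding genes. CGTAAATC was present at 6 of 31 (19.4%), against 5.59%. Other words chosen in the same way were sought within 50 bp of the summit. CGACAC was found at 1 of the 10 bound genes, rps-27, against 95 of the 380 other thresholded summits. ACACTC was found at 2, rps-27 and rps-1, against 17.4% of the others, and at rps-27 it overlapped the first word. ACGCGC was found at 1, rps-1, against 15.3% of the others. A match describes these letters and is not evidence of contact by the protein.

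A longer stretch of 16 bases was shared by the summits of rps-0, rps-30 and rps-20, in the direction of the gene at each. A search on both strands, within 100 bp of the summits of the 10 bound genes, kept the longest stretch shared by at least this many genes. Stretches shared by fewer genes were not sought. The one kept was first noticed by eye in these sequences, so it is a description of sequences already seen. In capitals it reads as follows at rps-0, chrIII:4754319-4754334 on the - strand.
rps-0: CTGAGTATTCAACGTT
Its centre lay 36.5, 23.5 and 6.5 bp downstream of the summits of rps-0, rps-30 and rps-20, and 275.5, 225.5 and 200.5 bp upstream of their starts. The genome holds 16 copies. Of these, 7 lay in the promoter window of an rps or rpl gene, 2 in the window of other protein-coding genes only, and 7 in no protein-coding window. The windows of rps-22, rpl-13, rpl-32, rpl-39 and rpl-7A held it too, and rpl-39 shares its copy with rps-30. Of the promoter windows of all protein-coding genes, 0.0751% held it, and neighbouring genes can share a copy. It lay within 100 bp of 5 of the 390 thresholded summits. The copies at rps-0, rps-30 and rps-20, which defined the stretch, are included in the 7 copies and in these 5 summits.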

How the data were processed

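Peaks came from ChIP-seq of 3 biological replicates. Calling was done by the authors on each replicate and on the 3 together, each against 1 control alignment, per the deposited description files, and a thresholded list was derived from these by the irreproducible discovery rate. No aligner, peak caller or cutoff is given in the sources used. The signal deposited for each peak is the authors' value and was used within a list only. Depth is unknown, since these lists hold no read counts. Their ce11 coordinates, printed 1-based, were read with Ensembl release 115 gene models, without piRNA genes (31563 genes left), and RefSeq WBcel235 sequence. No peak lay beyond a chromosome end.

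Shares carry exact 95% Clopper-Pearson intervals (scipy 1.17.1, numpy 2.4.6, pandas 2.3.3, Python 3.11.15), and the window rule was tested on simulated data. The members, gene lists and words were chosen with earlier results of these data known. With 1 group there was no comparison between conditions and no test. Where a gene had several summits in its window, the strongest was used.

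Named are each bound rps gene, the 5 with the strongest pooled peak among the others, those without a pooled summit, rcat-1 and genes sharing a peak. Others were chosen after their values were seen. Alternatives covered the window, starts, nearest genes, list length, replicates and motif distance.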

Additional observations from a re-analysis of the deposited data

How the results depend on the processing

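The count of 10 bound rps genes in the thresholded list was 9 with a window of 500 bp upstream to 100 bp downstream, which leaves out rps-27, and 10 with the wider window, the most upstream start or any base of the peak. It was 3 with the nearest start of any gene, 5 with the nearest protein-coding start and 5 with the stronger 195 of the peaks. The first pair give each peak to a single gene, and the last takes fewer peaks. The share of all protein-coding genes was not recounted under these settings. The pooled count of 28 was 10 with as many pooled peaks as thresholded ones, 15 with the strongest 1000, and 20 and 26 with longer lists. The count of 10 in every list was 4 with as many replicate peaks as thresholded ones, and 9 with 5 times as many. Leaving out each replicate in turn gave 10 to 10, which the rule fixes, since dropping a list cannot lower the count and the thresholded list caps it. An inside-the-peak rule for each replicate, chosen after the data were seen, gave 9, or 8 with the strongest replicate peaks. CGTAAA within 25 bp of the summit was found at 1 bound gene and CGTAAATC at 0, against 4 and 3 within 50 bp. Of the 380 other thresholded summits, 26.1% had CGTAAA and 20.8% had CGTAAATC within 25 bp. The settings with fewer peaks or a shorter distance to the summit can only lower a count. The 38 recomputed values of single genes did not move, but most could not, since the peak stayed in the window and most bound genes have 1 annotated start. No paired analysis was possible because all 3 replicates belong to 1 group. The unknown depth limits every rank near the threshold.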

Other observations

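A few rps genes outside the thresholded list had patterns that their pooled rank alone does not show, and they were chosen after their values were seen. rps-14 was the one unbound rps gene within the 1950 strongest peaks of every replicate, at ranks 669, 1008 and 1203, yet its pooled peak ranked only 3950. The strongest rps-14 summit lay 262 and 253 bp upstream of the start in replicates 1 and 3, but 104 bp downstream in replicate 2. Replicate 1 had another, weaker summit in this window. The pooled list also had 2 summits there, and its strongest lay 68 bp downstream of the start. That is away from the strongest summits of replicates 1 and 3, so these ranks do not describe a single site. rps-18 had signals of 8.43, 3.50 and 4.22 at ranks 2403, 18273 and 10705 in replicates 1, 2 and 3, and all 3 marked 1 place, 678, 703 and 720 bp upstream.

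rps-22 had the weakest pooled peak among the rps genes with one, at rank 8003 with a signal of 11.7 and the summit 46 bp upstream. It holds the 16-base stretch of the rps-0, rps-30 and rps-20 summits, with its centre 95.5 bp upstream of the start.

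At rps-5, the strongest summits in the window ranked 448 and 946 in replicates 1 and 3, 209 and 212 bp upstream, while that of replicate 2 ranked 20943, 799 bp upstream. At rps-19 the ranks were 2920, 617 and 250 in replicates 1, 2 and 3.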
